A study of Danio rerio with 3 samples.

Results

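The ndrg genes (N-myc downstream regulated genes) were followed in zebrafish embryos in which slc2a10 had been knocked down. They were found as the probes whose gene symbol in the platform annotation begins with ndrg. There were 12 such probes among 43603, for 6 of 15548 named genes: ndrg1a, ndrg1b, ndrg2, ndrg3a, ndrg3b and ndrg4. The family had been picked out with its values known, ndrg1a and ndrg1b for lying on opposite sides. Its values are therefore given as a description, without a p-value.

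Embryos of wild type strain Ab received 7.5 ng of an antisense morpholino (MO) aimed at the splice donor of slc2a10 exon 2, and were kept at 28 degrees C until 48 hours post fertilization, when those showing a recognizable (Class 1) phenotype were chosen. Other embryos of the strain received 5 ng of a control MO, and the labels mention no sorting of these. Each of 3 slc2a10 MO replicates held RNA of 10 to 15 whole embryos, and the control MO RNA was pooled into a single sample. Each replicate was hybridised against that pool on a two-colour array, with the dyes swapped on replicate 2. An MO is a transient reagent that leaves the genome unaltered. The dose and the sorting differed between the groups together with the target, and their part in any value cannot be told apart from it.

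The injected oligomers are shown because they are the reagents that set the groups apart. Capitals mark CTTAC, which is the reverse complement of the common splice donor start GTAAG and occurs 1 time in each.
slc2a10 MO: caaataaagtccaCTTACttggt
control MO: cctCTTACctcagttacaatttata
The slc2a10 MO has 23 bases and the control MO 25. A match is a description of the letters and not of what the oligomer binds.

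NDRG proteins have the fold of alpha/beta hydrolases but lack the catalytic residues of those enzymes. The founding human gene, NDRG1, is repressed by N-myc and Myc, is induced by low oxygen through hypoxia-inducible factor (HIF), and is phosphorylated by the kinases SGK1 and GSK3. Its loss in humans causes an inherited demyelinating neuropathy. In mammals NDRG2 is abundant in astrocytes, NDRG3 binds lactate under low oxygen, and NDRG4 is expressed in brain and heart. In zebrafish, ndrg1a is active in the pronephros and in ionocytes, where its product promotes degradation of the sodium-potassium pump under low oxygen, and ndrg4 is needed for the growth of heart muscle. Zebrafish carry a pair of genes for NDRG1 and a pair for NDRG3.

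Each deposited value is a log ratio of the 2 channels of an array, read here as log2. The values of replicate 2 ran against those of replicate 1 (r = -0.65 over all probes) and of replicate 3 (r = -0.69), while replicates 1 and 3 ran together (r = 0.48), so the sign of replicate 2 was turned. The sample titles name slc2a10 MO first on replicates 1 and 3 and the control MO pool first on replicate 2. On each array the RNA named first is thus the one in Cy3, which read as a ratio would be Cy3 over Cy5. No label states that the order of the title is that of the ratio. Positive values are therefore defined as the side of slc2a10 itself. A Cy5 over Cy3 reading puts that side lower in slc2a10 MO embryos than in the control MO pool, and a Cy3 over Cy5 reading puts it higher in slc2a10 MO embryos. The slc2a10 probe had 0.50, 0.42 and 0.47 on replicates 1, 2 and 3, a mean of 0.46 ± 0.04 (SD, n = 3). An MO that blocks splicing need not alter transcript amount, so this value does not check the labels.

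The paralogs of NDRG1 held the largest sizes of the family, on opposite sides. The ndrg1b ratios were 1.13, 1.20 and 0.79 on replicates 1, 2 and 3. All 3 lay on the slc2a10 side, replicate 3 lowest. Their mean was 1.04 ± 0.22 (SD, n = 3), a 2.06-fold difference, and 53 of the 15548 genes, ndrg1b included, had a mean of at least this size. The ndrg1a ratios were -0.30, -0.49 and -0.64. All 3 lay on the opposite side, replicate 1 nearest to 0, with a mean of -0.48 ± 0.17 (SD, n = 3), a 1.39-fold difference. The array with the smallest ndrg1b ratio was thus the one with the largest size for ndrg1a.

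Within an array, a difference between genes does not depend on where that array was centred. The ndrg1b ratio exceeded the ndrg1a ratio by 1.43, 1.69 and 1.44 on replicates 1, 2 and 3. The mean difference was 1.52 ± 0.15 (SD, n = 3), or 2.86-fold. It varied less between arrays than the ndrg1b ratio itself did. Under a Cy5 over Cy3 reading, ndrg1b was lower and ndrg1a higher in slc2a10 MO embryos, and under a Cy3 over Cy5 reading ndrg1b was higher and ndrg1a lower in slc2a10 MO embryos. The opposition of the paralogs holds under either reading.

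Each paralog was measured by 2 probes, which gave the same sign on every array. The ndrg1b probes had 1.21, 1.28 and 0.83 for the first and 1.05, 1.12 and 0.76 for the second on replicates 1, 2 and 3. The ndrg1a probes had -0.22, -0.46 and -0.53 for the first and -0.38, -0.52 and -0.75 for the second. In all 4 probes the order of the arrays was that of the gene mean, and the probe means differed by 0.13 for ndrg1b and by 0.15 for ndrg1a. Over the 6107 genes with more than 1 probe, the median spread of probe means was 0.09. Where these probes lie in their transcripts, and how far they cross-hybridise between the paralogs, no source used here says.

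**Figure D1:**
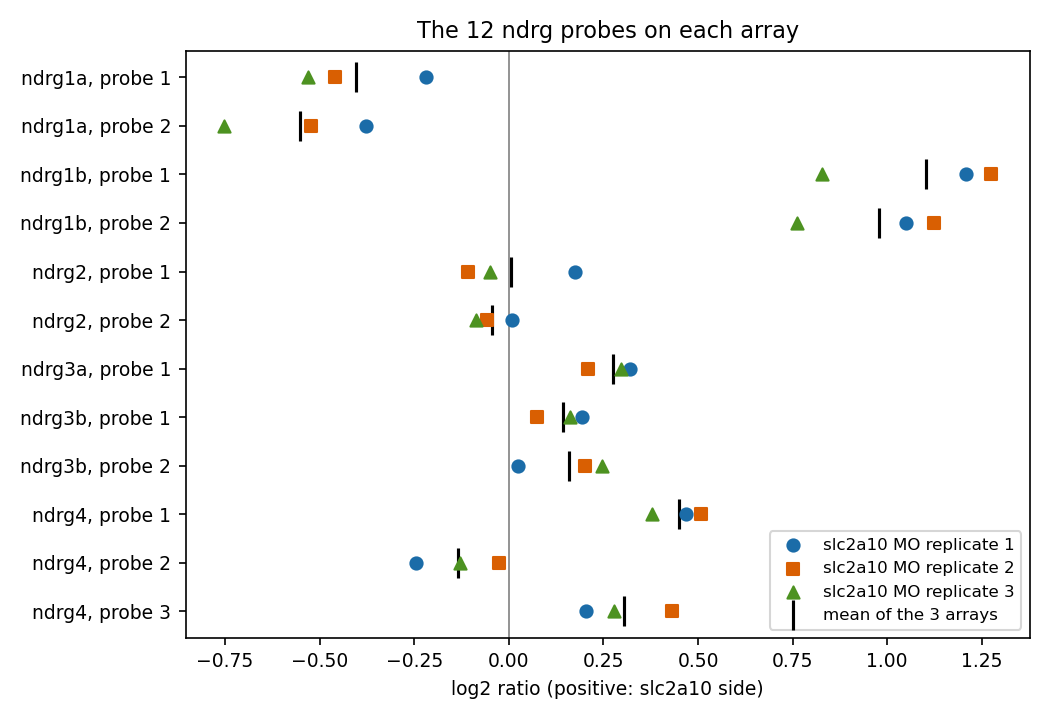
Log2 ratios of the 12 ndrg probes (rows) on the 3 arrays (markers), with replicate 2 turned, positive values on the slc2a10 side and black bars for the mean of the 3 arrays. The ndrg1b probes lie between 0.76 and 1.28, the ndrg1a probes between -0.75 and -0.22, and 1 of the 3 ndrg4 probes lies on the side opposite to the others.

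The NDRG3 paralogs did not share the opposition. The single probe of ndrg3a had 0.32, 0.21 and 0.30 on replicates 1, 2 and 3. All 3 were on the slc2a10 side, with a mean of 0.28 ± 0.06 (SD, n = 3; 1.21-fold). The ndrg3b ratios were 0.11, 0.14 and 0.20, also all on the slc2a10 side, with a mean of 0.15 ± 0.05 (SD, n = 3; 1.11-fold). Averaged over probes, the values of the pair came close without overlapping, with the lowest for ndrg3a at 0.21 and the highest for ndrg3b at 0.20. The ndrg3b probes had 0.19, 0.07 and 0.16 for the first and 0.03, 0.20 and 0.25 for the second. By single probes the pair thus overlapped, since 0.25 lies above the lowest ndrg3a value. The difference of ndrg3a over ndrg3b was 0.21, 0.07 and 0.09, a mean of 0.12 ± 0.08 (SD, n = 3).

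The gene of the neural and cardiac member, ndrg4, was the one whose probes disagreed most. Its gene mean was 0.14, 0.30 and 0.17 on replicates 1, 2 and 3, or 0.21 ± 0.09 (SD, n = 3; 1.15-fold). The first probe had 0.47, 0.51 and 0.38 and the third 0.20, 0.43 and 0.28, all on the slc2a10 side. The second (A_15_P194741) had -0.25, -0.02 and -0.13, all on the opposite side. The spread of the ndrg4 probe means was 0.58, and 0.95% of genes with more than 1 probe had a spread at least as large. Probe means of both signs were commoner, in 33.1% of those genes. Without that probe the ndrg4 mean was 0.38. The cause of the disagreement was not tested, and the annotation used here gives the same transcript for all 3 probes.

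The astrocyte-associated member, ndrg2, lay near 0. Its ratios were 0.09, -0.08 and -0.07 on replicates 1, 2 and 3, with a mean of -0.02 ± 0.10 (SD, n = 3), so the arrays disagreed in sign. Its probe means were 0.01 and -0.05. A change smaller than this spread could not be seen with 3 arrays, and a somewhat larger one could be missed as well.

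In order of the mean, ndrg1b stood first, followed by ndrg3a, ndrg4, ndrg3b, ndrg2 and ndrg1a. Averaged over probes, the values of ndrg1b lay clear of all the others on every array, as did those of ndrg1a. The averaged values of ndrg3a and ndrg4 overlapped, as did those of ndrg4 and ndrg3b, while ndrg3b (at least 0.11) and ndrg2 (at most 0.09) did not. Single probes were less separate. On replicate 1 the second ndrg3b probe had 0.03 and the first ndrg2 probe 0.17. On that array the second ndrg4 probe (-0.25) also lay below the first ndrg1a probe (-0.22). Across all genes, limma called 2996 of 15548 (19.3%) at a Benjamini-Hochberg adjusted p under 0.05, 11.1% with slc2a10 and 8.16% opposite. Of the 6 ndrg genes, 4 were past that threshold, 3 on the slc2a10 side and 1 opposite. Since the members were picked by this contrast, nothing is read from that count. Just inside the threshold stood ndrg4 at 0.21 and just outside it ndrg3b at 0.15. Without replicate 2, without replicate 3, or with a term for the dye, ndrg4 was outside it and 3 members were left. That gene mean averages probes of both signs. When each probe was fitted by itself, 2 of the 3 ndrg4 probes were past the threshold, beside 4247 of 23717 named probes.

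The dye order of the arrays was set beside the ratios, because replicate 2 alone carried slc2a10 MO RNA in Cy5. The ndrg1b mean was 1.08 when the dye orders were weighted equally, against 1.04 over the 3 arrays as they stand, and the ndrg1a mean was -0.48 either way. The part of a probe's ratio that went with the dye was -0.13 and -0.11 for the ndrg1b probes and 0.04 and -0.02 for the ndrg1a probes. Over all probes its median size was 0.04 and its 95th percentile 0.12. The first ndrg1b probe thus lay just beyond that percentile, with a dye part far smaller than its ratio. Only replicate 2 was swapped, so the dye part cannot be told apart from other differences of that replicate. Had replicate 2 kept its deposited sign, the means would be 0.24 for ndrg1b and -0.15 for ndrg1a.

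To see how common opposed paralogs were on these arrays, genes whose symbols end in a digit followed by a or b were paired, a rule set after the values were seen. It uses names as a stand-in for shared ancestry. Of 1338 such pairs, 86 had both genes past the threshold (37 without replicate 2), 61 of them on the same side and 25 on opposite sides. Those 25 made up 1.87% of the pairs. Over all genes, limma called 11.1% on the slc2a10 side and 8.16% opposite. Pairs of unrelated genes were not counted, so the number of opposed pairs is not read as a trait of paralogs. The opposed pairs numbered 7 without replicate 2, 17 without replicate 3 and 15 with a dye term, and ndrg1a and ndrg1b were among them in each of these settings. With replicate 2 as deposited, or by an unmoderated statistic, 0 pairs had both genes past the threshold. The median difference within a pair had a size of 0.13 and the 95th percentile was 0.53. Differences at least as large as that of ndrg1a and ndrg1b were found in 5 pairs, that pair included (0.37%). The ndrg3 pair was ordinary by this measure, since 51.4% of pairs differed at least as much. The ndrg1 pair was picked for its opposed values, so its place among the pairs is a description and not a test.

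Among the opposed pairs, 2 differed by more than ndrg1a and ndrg1b, and they are named because of that. The carboxylesterase genes ces2a and ces2b had means of 1.50 and -0.40. The retinoid isomerase genes rpe65a and rpe65b had 1.68 and -0.20. The call of rpe65b was lost when any of the 3 replicates was left out, with limma adjusted p = 0.056 without replicate 1, 0.15 without replicate 2 and 0.086 without replicate 3, and with a dye term (limma adjusted p = 0.11). In both pairs the a gene was on the slc2a10 side, whereas in ndrg1 it was the b gene.

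**Figure D2:**
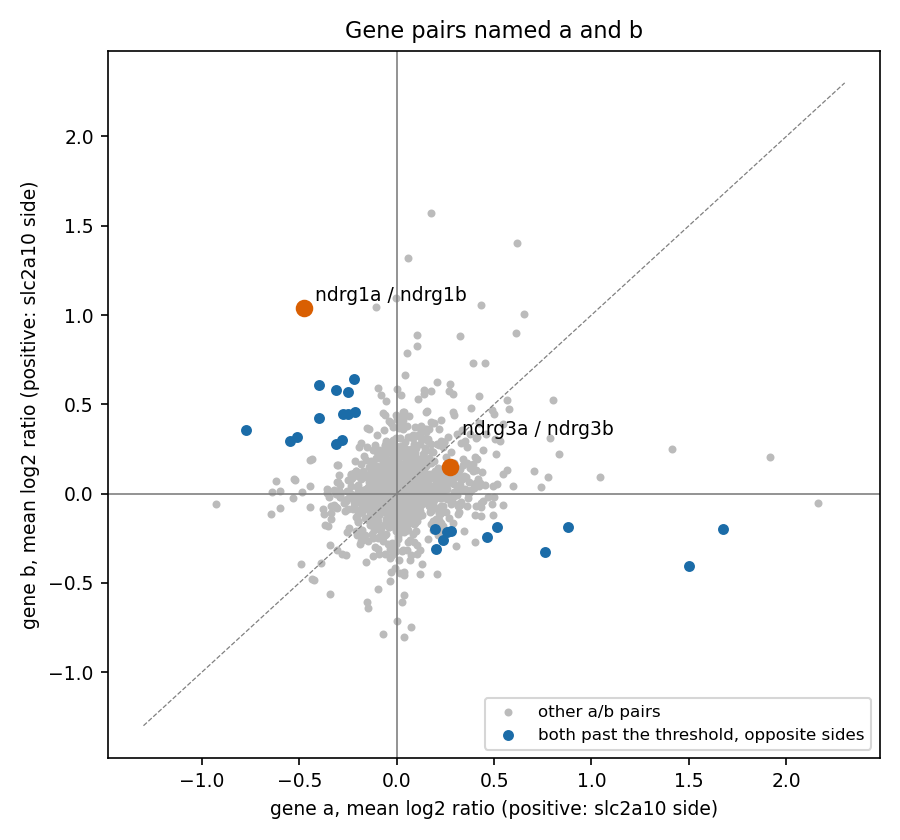
Mean log2 ratio over 3 arrays of gene b (vertical) against gene a (horizontal) for 1338 pairs named a and b, with blue points for pairs that had both genes past the threshold on opposite sides and orange points for the ndrg1 and ndrg3 pairs. The ndrg1 pair lies at -0.48 and 1.04, far from the dashed line of equal values, and the ndrg3 pair at 0.28 and 0.15, near it.

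The surroundings of the genes were then examined, taking the 3 nearest protein-coding genes on each side from the gene order of RefSeq's GRCz12tu assembly. The ndrg1 paralogs sit in related neighbourhoods: ccn4a, of a secreted matricellular protein, adjoins ndrg1a, and its paralog ccn4b adjoins ndrg1b. The genes sla1a and sla1b, of adaptor proteins, lie within the same reach. The ndrg3 paralogs likewise share sla2, phf20, arhgap46 and sulf2 genes. This arrangement is a feature of the genome and not a result of the arrays.

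None of the measured neighbours of ndrg1b was past the threshold in limma: 0 of 3, beside 19.3% of all genes. At an unadjusted p under 0.05 there was 1. An unmoderated statistic gave 0, but with 2 calls over all genes it could hardly do otherwise for 3 genes. The gene adjoining ndrg1b on the side away from ccn4b, ptp4a3b, of a tyrosine phosphatase, had -0.27, -0.16 and -0.11, opposite in sign to ndrg1b. The kinase gene csnk2a1 had a mean of 0.09 ± 0.06 and the thyroglobulin gene tg 0.05 ± 0.08 (SD, n = 3 each). Beside ndrg1a, 1 of 5 measured neighbours was called, ctnnal1, of an alpha-catenin-like protein, at -0.25 ± 0.15 (limma adjusted p = 0.029). It lost that call without replicate 2 (mean -0.17). Next to ndrg1a itself, ccn4a had 0.26, 0.24 and -0.06, with no common sign.

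Around ndrg3b the sulfatase gene sulf2b was called, at 0.33 ± 0.08 (limma adjusted p = 0.0053), while its paralog sulf2a beside ndrg3a had -0.10 ± 0.04 and did not pass (limma adjusted p = 0.22). Next to ndrg4, the replication gene gins3 had -0.60, -0.49 and -0.47, opposite to the ndrg4 mean (limma adjusted p = 0.00062). The ubiquitin ligase gene znrf1, also near ndrg4, had 0.26 ± 0.13, and zgc:55733, near ndrg2, had 0.24 ± 0.08. Each of these was past the threshold with all 3 arrays (limma adjusted p = 0.021 and 0.017), but znrf1 lost the call without replicate 1 or 2 or with a dye term, and zgc:55733 without replicate 2 or 3. In all, 5 of 23 measured neighbours were called, beside 19.3% of all genes.

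**Figure D3:**
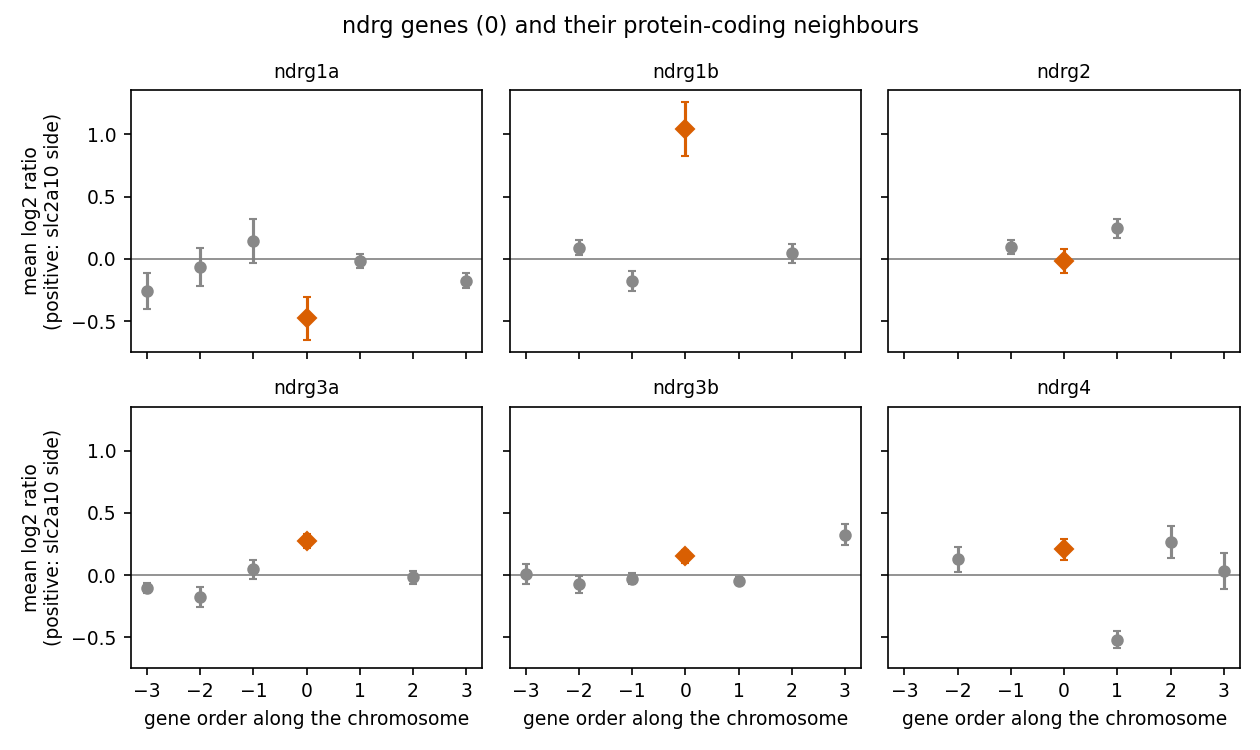
Mean log2 ratio with SD over 3 arrays (vertical; positive on the slc2a10 side) of each ndrg gene (orange, position 0) and of its measured protein-coding neighbours (grey), by their order along the chromosome (horizontal). The measured neighbours of ndrg1b lie between -0.18 and 0.09, while ndrg1b lies at 1.04.

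Genes known to act above or beside the NDRG proteins were taken from lists compiled with earlier results of these data known. In the core of the oxygen-sensing pathway, 1 of 12 measured genes was called (8.33%, beside 19.3% of all genes), on the opposite side: the prolyl hydroxylase gene egln3, itself a HIF target, at -0.25 ± 0.18 (limma adjusted p = 0.045). It was -0.15 and not called without replicate 2, and -0.27 and not called without replicate 3. On the slc2a10 side limma called 0, with 0 also at an unadjusted p under 0.05. An unmoderated statistic gave 0 too, but with 2 calls over all genes it could hardly do otherwise in a short list. The gene of the oxygen-regulated factor itself, hif1ab, had -0.06 ± 0.006 (limma adjusted p = 0.50). The list median was -0.03, beside 0.01 over all genes.

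Known hypoxia-inducible genes lay on both sides of 0. Limma called 10 of 42 (23.8%), near the 19.3% of all genes, divided 5 and 5 between the sides, and their median was 0.01. On the slc2a10 side the largest were the glycolysis enzyme genes pgk1 (0.49 ± 0.38), tpi1b (0.47 ± 0.16), eno1a (0.44 ± 0.10) and gapdh (0.31 ± 0.11). For pgk1 replicate 1 was far above the others, with 0.92, 0.33 and 0.23 on the 3 replicates and a mean of 0.28 without replicate 1 (still called). On the opposite side, with ndrg1a, the largest were igfbp1a, of an insulin-like growth factor binding protein (-0.60 ± 0.03), the vascular growth factor gene vegfaa (-0.35 ± 0.06), the hexokinase gene hk2 (-0.25 ± 0.06) and the adrenomedullin gene adma (-0.22 ± 0.10). The glucose transporter gene slc2a1a had 0.03 ± 0.08. Without replicate 2 the list had 6 calls in place of 10, and hk2 and adma lost theirs.

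The Myc family, whose products repress NDRG1 in mammals, had 1 call on each side among 12 measured genes (16.7%, beside 19.3% of all genes). These were myca at 0.19 ± 0.05 (limma adjusted p = 0.038) and mxd3, of a Max-binding repressor, at -0.18 ± 0.03 (limma adjusted p = 0.042). The call of myca was lost without any of the 3 replicates and that of mxd3 without replicate 2 or 3, and a dye term ended both (limma adjusted p = 0.15 and 0.12). The gene of N-myc itself, mycn, had -0.09, -0.13 and -0.18, a mean that did not pass (limma adjusted p = 0.12). The list median was 0.01, and -0.04 without replicate 3.

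Of 13 kinase genes of the SGK, GSK3 and TORC2 group, 1 was called (7.69%, beside 19.3% of all genes), sgk2b at -0.27 ± 0.12 (limma adjusted p = 0.019), and it lost the call without replicate 2. On the slc2a10 side limma called 0 of them, with 1 at an unadjusted p under 0.05. The unmoderated statistic, with 2 calls over all genes, gave 0. The gene of the NDRG1 kinase SGK1, sgk1, had 0.06 ± 0.06 (limma adjusted p = 0.55). NDRG1 also binds recycling endosomes and helps return E-cadherin to the cell surface in human cells. Of 13 genes of that route, 1 was called (also 7.69%), the alpha-catenin gene ctnna1 at -0.28 ± 0.03 (limma adjusted p = 0.0067), and the E-cadherin gene cdh1 had -0.15 ± 0.11 (limma adjusted p = 0.14). On the slc2a10 side there were 0 limma calls and 1 gene at an unadjusted p under 0.05. On the opposite side 5 genes of the list had an unadjusted limma p under 0.05. Over all 15548 genes, 4880 had such a p on either side. The list median was -0.07, beside 0.01 over all genes. Here too the unmoderated statistic gave 0, beside 2 over all genes. Limma calls in this list numbered 3, 2 and 2 without replicates 1, 2 and 3, beside 3211, 1556 and 2527 over all genes.

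Tissue markers were set beside the ndrg genes, since in whole embryos fewer cells of a type and less RNA per cell cannot be told apart. Some of these tissues are named above as sites of ndrg expression, but none is so named for ndrg1b. Log ratios carry no level, so the whole embryo label could not be checked against markers. For ndrg1a, 33 ionocyte and pronephros genes were measured. Limma called 5 of them (15.2%, near the 19.3% of all genes), 3 with slc2a10 and 2 against it, and the list median was -0.02 (0.02 without replicate 3). The pump subunit gene atp1b1b had -0.27, -0.48 and -0.57 on replicates 1, 2 and 3 (limma adjusted p = 0.0032), on the ndrg1a side and in the same order of arrays. The cadherin gene cdh17 of the pronephric tubule had -0.28 ± 0.17, and it lost its call without replicate 2 or 3. On the slc2a10 side were the carbonic anhydrase gene ca2 (0.49 ± 0.12), the pump gene atp1a1b (0.34 ± 0.09) and the kidney transcription factor gene lhx1a (0.33 ± 0.23, and 0.20 without replicate 1, still called). Of the other pump genes on the list, atp1b1a, named as the pair of atp1b1b, had 0.04 ± 0.03 (limma adjusted p = 0.68). In addition, atp1a1a.2 had -0.18 ± 0.26, atp1a1a.3 0.12 ± 0.10, atp1a1a.4 -0.04 ± 0.14 and atp1a1a.5 0.17 ± 0.10, none past the threshold with all arrays. For atp1a1a.2 replicate 1 stood apart, with 0.12, -0.33 and -0.35 on the 3 replicates. Without replicate 1 its mean was -0.34 and it was called, on the ndrg1a side (limma adjusted p = 0.0038).

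For ndrg4, 19 heart genes were measured, with 3 called on each side (31.6% in all, beside 19.3% of all genes) and a median of 0.04. The contractile genes myl4 (0.57 ± 0.09) and myh7 (0.57 ± 0.08) and the natriuretic peptide gene nppa (0.44 ± 0.06) were on the slc2a10 side, while the transcription factor genes gata5 (-0.65 ± 0.05) and gata6 (-0.34 ± 0.20) and the titin gene ttn.2 (-0.22 ± 0.01) were opposite. The ttn.2 call was lost without replicate 2 or 3 and with a dye term (limma adjusted p = 0.071 with that term). Limma called 10 of 13 neuron genes (76.9%, beside 19.3% of all genes), 9 with slc2a10 and 1 against it. Their median was 0.37, and 0.44, 0.36 and 0.29 on replicates 1, 2 and 3. They included snap25b of the synaptic vesicle machinery (0.88 ± 0.16), the microtubule regulator gene stmn2a (0.55 ± 0.12), the RNA-binding protein gene elavl4 (0.52 ± 0.20) and the motor neuron factor gene isl1a (0.52 ± 0.13). The neurofilament gene nefmb was opposite (-0.25 ± 0.07) and lost its call without replicate 3 and with a dye term (limma adjusted p = 0.056 and 0.055). Among the genes not called, elavl3 was opposite on every array, at -0.14 ± 0.05 (limma adjusted p = 0.10). The others not called, scn1lab (0.08 ± 0.12) and nefma (0.26 ± 0.28), had means on the slc2a10 side. The part of neuron number in the ndrg4 value was not tested.

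Among 9 myelin and glia genes limma made 3 calls, each toward slc2a10, and the median was 0.06. That is 33.3%, beside 19.3% of all genes on either side and 11.1% on the slc2a10 side. The called genes were the radial glia gene fabp7a (0.83 ± 0.15), the oligodendrocyte factor gene olig2 (0.42 ± 0.11) and the glial filament gene gfap (0.28 ± 0.12). On the opposite side limma called 0 of them, with 0 at an unadjusted p under 0.05. The unmoderated statistic, with 2 calls over all genes, gave 0 as well. The myelin gene mbpa had 0.06 ± 0.06. Among 27 photoreceptor and pineal genes limma made 9 calls toward slc2a10 (also 33.3%, beside the same 19.3% and 11.1%), and the median was 0.05. On the opposite side limma called 0, again with 0 at an unadjusted p under 0.05. By the unmoderated statistic there were also 0, beside 2 over all genes. The largest were the photoreceptor transcription factor genes crx (1.99 ± 0.59), nr2e3 (1.06 ± 0.16) and otx5 (1.05 ± 0.29) and the arrestin gene sagb (1.20 ± 0.06). The opsin genes opn1lw1 (-0.01 ± 0.03) and opn1mw1 (-0.01 ± 0.03) were near 0. Whether these cells express ndrg1b was not examined here, and their part in its value was not tested.

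**Figure D4:**
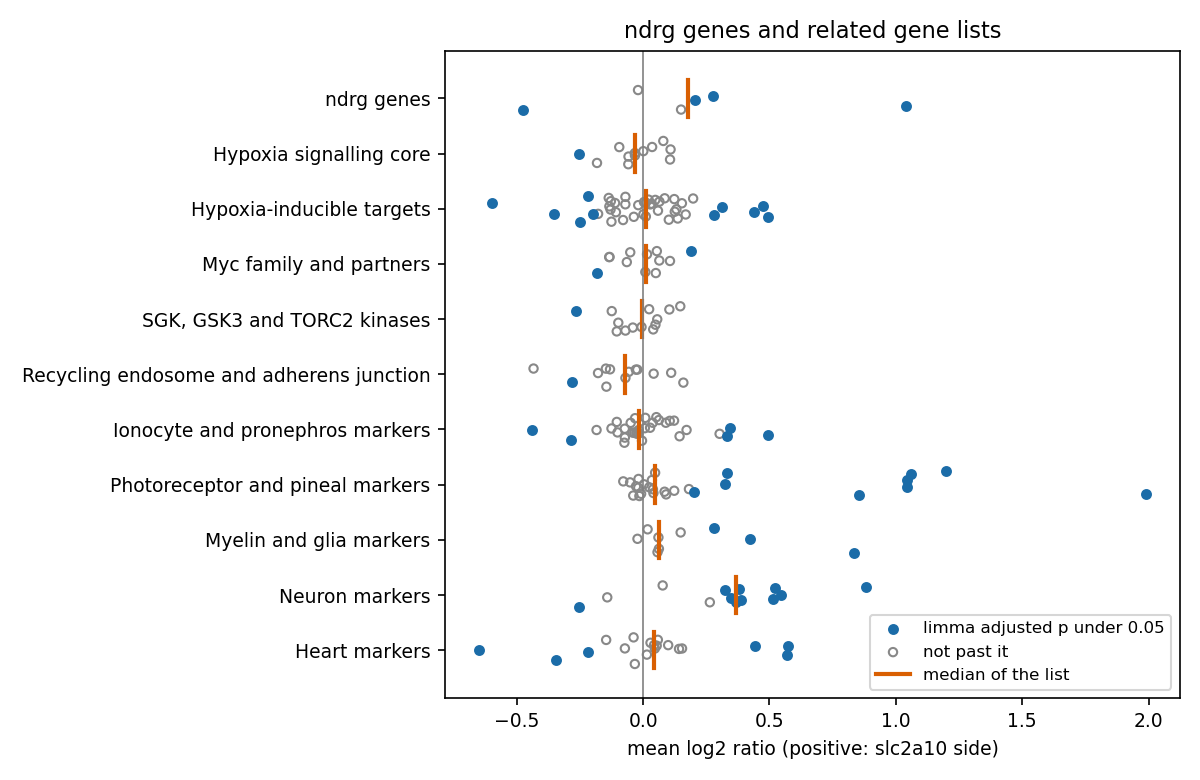
Mean log2 ratio over 3 arrays (horizontal; positive on the slc2a10 side) of the 6 ndrg genes and of the members of 10 gene lists (rows), filled where limma gave an adjusted p under 0.05, with an orange bar for the median. The ndrg genes run from -0.48 to 1.04, and the neuron markers have the median farthest from 0, at 0.37.

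The genes most like each ndrg gene were found by the Euclidean distance between log2 ratios over the 3 arrays. This is a description over 3 values that share a control pool, and it says nothing about shared function. Nearest to ndrg1b were nr2e3 (distance 0.14), the synaptotagmin gene syt5b (0.15) and bhlhe23, of a helix-loop-helix factor (0.17). On replicates 1, 2 and 3, nr2e3 had 1.05, 1.22 and 0.91 and bhlhe23 1.08, 1.10 and 0.93, in the order of arrays of ndrg1b. In contrast, syt5b had 1.19, 1.16 and 0.93, in another order. These genes were chosen on the same values, so a shared order is partly built in. Nearest to ndrg1a were tpte (0.031), zgc:64189 (0.032) and atp1b1b (0.074). The nearest to ndrg3a were tmem53 (0.009), tegt (0.017) and dnajb9b (0.021), and to ndrg4 emc9 (0.011), si:ch211-57i17.5 (0.037) and quob (0.038). The nearest to ndrg3b were cops3, bcl2l1 and htr6, and to ndrg2 rbm12bb, etaa1b and mbd1b, at distances of 0.007 to 0.015. The larger distances of ndrg1b go with the small number of genes that have ratios of that size.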

How the data were processed

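RNA of 3 slc2a10 MO replicates was hybridised against 1 control MO pool on two-colour Agilent arrays. The authors deposited 1 log ratio per probe and array, read here as log2 because no source used here states the base. Partek is named, without version or role, per the submitters' processing notes. No source used here gives the scanner, background correction or normalization, and signal above background is unknown. Column medians were -0.0016, -0.0076 and -0.0045. Precision is limited by there being 3 arrays. Of 43648 features, 45 control spots were left out. Names came from the platform annotation, updated through RefSeq (GRCz12tu) by Entrez ID for 23534 probes and by accession for 42, with 141 kept. A single symbol was found for 23717 probes, several for 0 and none here for 19886. Values of a gene's probes were averaged on each array. limma 3.58.1 in R 4.3.3 tested the mean of 3 arrays against 0 with Benjamini-Hochberg adjustment, after a test on simulated data. The pool counts as 1 control sample, so the spread between control embryos is left out. The labels call the replicates biological.

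The members and lists were chosen with earlier results of these data known. Named were all ndrg genes, slc2a10, a few regulators of NDRG proteins, up to 4 called genes per list and side, and the 3 nearest genes to each member. Genes chosen after values were seen are the neighbours, the opposed pairs, and mbpa, opn1lw1, opn1mw1, atp1b1a, elavl3, scn1lab and nefma. Alternatives covered each replicate left out, the sign of replicate 2, a dye term, normalization, scaling, moderation, log base and single probes, and, added after seeing the data, median centring and ndrg4 without a probe.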

Additional observations from a re-analysis of the deposited data

How the results depend on the processing

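No paired analysis was possible because the control RNA was a single pool with no replicate numbers. The sign of replicate 2 mattered most. Left as deposited, it gave means of -0.15 for ndrg1a, 0.24 for ndrg1b, 0.14 for ndrg3a, 0.059 for ndrg3b and 0.0040 for ndrg4, a difference of ndrg1b over ndrg1a of 0.39, and limma calls in 0 of all genes (28 at an unadjusted p under 0.05), 0 ndrg genes and 0 listed genes. An unmoderated statistic called 2 of all genes, 0 ndrg genes and 0 listed genes (3262 of all genes at an unadjusted p under 0.05). Read as natural logs, the means would be -0.69, 1.50, 0.40, 0.22 and 0.30 for ndrg1a, ndrg1b, ndrg3a, ndrg3b and ndrg4, and the ndrg1 difference 2.19. Without its probe of opposite sign ndrg4 had 0.38. Leaving out a replicate gave 1556 to 3211 calls over all genes, lowest without replicate 2, against 2996 with all arrays. Over these 3 settings, the ndrg1b mean ran between 0.96 and 1.16 and the ndrg1a mean between -0.57 and -0.39. Over the 193 listed genes, 48 calls became 36 without replicate 2. With quantile normalization, equal scaling, median centring or robust moderation, 4 ndrg genes were past the threshold each time. Of all 15548 genes, 3089, 3071, 3002 and 2995 were past it in these settings. The members were picked by this contrast, so nothing is read from their count. Signal over background, which was not analysed here, limits what can be said of dim probes.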
